A study of Rorippa islandica and Rorippa pyrenaica with 24 samples.

Results

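The genes described here are 100 of the 30646 genes measured in young leaves of *R. islandica* and *R. stylosa* whose level, in counts scaled to a common library total (CPM), stayed nearly the same across both species and under submergence. They were chosen by these data: isoforms were summed, CPM were computed with the total count of each library, and the means of the 8 groups of species, treatment and time point were compared. A gene was kept where all 8 means were at least 20 and under 1000 CPM, where submergence and control differed by under 0.2 on the log2 scale in both species at both time points, and where the control means of *R. islandica* and *R. stylosa* differed by under 0.5. The window of levels alone held 4643 genes, of which 2754 met the species limit, 150 met the submergence limit and 100 met both. They are candidate reference genes, and their levels and submergence ratios are therefore given as descriptions.

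The 24 libraries came from *R. islandica*, a submergence-tolerant diploid raised from seed, and from *R. stylosa*, a sensitive diploid grown by vegetative propagation, carried out anew for every replicate. Plants of 3 to 4 weeks on soil in short days were submerged in boxes of tap water for 24 or 48 h, or kept in empty boxes as controls, with 3 libraries for each species, treatment and time point. The reads of both species had been assigned to the transcripts of *R. islandica*, and the totals ran between 24127592 and 66692318 counts per library. The files pair no gene names with the identifiers, so the genes are given by identifier, orthogroup and coding length, no known role is attached to them, and the leaf label was not checked against marker genes.

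Reference genes are used in quantitative PCR to correct for the amount of RNA and cDNA in a sample, and a useful one keeps its level when the tissue, species and treatment change. Genes for cytoskeletal proteins, protein phosphatase subunits or ubiquitin-conjugating enzymes are often used in plants. In sequencing data a level is always relative to a total, so a gene can be level in CPM and still change its share of the transcripts outside the most abundant ones.

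Most of the 100 genes had moderate levels. The mean over 24 libraries was 49.9 CPM at the median, 50 genes were between 20 and 50 CPM, 30 between 50 and 100, 12 between 100 and 200 and 8 above 200. The lowest mean was 21.5 CPM for Roisl.0018s0206 and the highest 741 CPM for Roisl.0080s0114. Roisl.0080s0114 had 652, 762 and 683 CPM at 24 h and 674, 623 and 581 CPM at 48 h in submerged *R. islandica*, against 620.1, 621 and 650.5 CPM and 654, 634 and 657 CPM in controls. Its submerged *R. stylosa* libraries had 736, 747 and 818 CPM at 24 h and 761, 887 and 882 CPM at 48 h, against 767, 984 and 816 CPM and 749, 907 and 911 CPM in controls. Submerged libraries were above the controls in *R. islandica* at 24 h, and the treatments overlapped in the other 3 comparisons. Every gene had at least 451 counts in each library. Per kilobase of coding length, the mean level was between 6.50 and 872 CPM, with a median of 39.7.

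Coding length and family size were near those of the other genes of the window. The coding length was 1345.5 bases at the median, against 1380 in the 4543 other genes of the window, and 89 of the 100 were alone in their orthogroup, against 85.8% of the other genes of the window and 68.8% of all genes. In 84 of the 100 every deposited count was whole within 1e-06, against 74.5% of the other genes of the window. Counts that are not whole arise where kallisto, the authors' quantification tool, divided reads between transcripts. Roisl.0028s0828, Roisl.0082s0144 and Roisl.0210s1452 were the only ones of the 100 with counts that were not whole in 24 of 24 libraries. Roisl.0028s0828 and Roisl.0082s0144 have paralogs in the annotation and their levels are uncertain for that reason, and Roisl.0210s1452 has 2 isoforms.

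The nearest genes inside and outside were close together at the submergence limit and far apart at the upper edge of the window. At the submergence limit, the largest ratio of Roisl.0022s0269 (OG0000668) was 0.199 on the log2 scale and that of the nearest excluded gene, Roisl.0021s0598, was 0.201. At the species limit, Roisl.0184s0002 was inside with 0.493 and Roisl.0015s0090 outside with 0.514. At the edges of the window, Roisl.0080s0491 was inside with a lowest group mean of 20.2 CPM and Roisl.0019s0238 outside with 18.9 CPM. Roisl.0080s0114 was inside with a highest mean of 856 CPM and Roisl.0067s0078 outside with 1066 CPM.

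The 10 genes with the smallest SD of log2 CPM over all 24 libraries had SDs of 0.089 to 0.11 and coefficients of variation of 6.22 to 7.61%. The most even was Roisl.0019s0363 (OG0007157, coding length 858). In submerged *R. islandica* it had 257, 253 and 242 CPM at 24 h and 249.9, 229.7 and 227 CPM at 48 h, against 226, 239 and 261 CPM and 249, 233 and 249 CPM in controls. The same gene had 283, 259 and 273 CPM at 24 h and 254, 282 and 249 CPM at 48 h in submerged *R. stylosa*, against 251, 249.9 and 251 CPM and 229.7, 264 and 254 CPM in controls. Submerged and control libraries overlapped in all comparisons except that of *R. stylosa* at 24 h, and the highest of the 24 libraries was 1.25 times the lowest.

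Roisl.0210s0617 (OG0009928, coding length 2046) was nearly as even, at a similar level. It had 247, 238 and 233 CPM at 24 h and 232, 212 and 219.8 CPM at 48 h in submerged *R. islandica*, against 245, 240.1 and 249 CPM and 258, 249 and 237 CPM in controls. It had 235, 239.8 and 231 CPM at 24 h and 260.1, 269 and 242 CPM at 48 h in submerged *R. stylosa*, against 239.7, 258 and 249.7 CPM and 213, 260.4 and 265 CPM in controls. All 3 submerged *R. islandica* libraries at 48 h were below the 3 controls.

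Among the genes near the lower end of the window, Roisl.0018s0206 (OG0009045) and Roisl.0210s0016 (OG0003794) stood among the 10. Roisl.0018s0206 had 22.7, 19.8 and 21 CPM at 24 h and 21.1, 22.1 and 23.3 CPM at 48 h in submerged *R. islandica*, against 19.8, 21.8 and 20.3 CPM and 25.4, 20.5 and 21 CPM in controls. Submerged *R. stylosa* had 24.2, 21.4 and 20.7 CPM at 24 h and 21.5, 18.3 and 22.3 CPM at 48 h, against 24.3, 20.5 and 19.9 CPM and 21.8, 21.5 and 21 CPM in controls. The groups overlapped throughout. The range of Roisl.0210s0016 over 24 libraries was 19.4 to 25.9 CPM, and that of Roisl.0058s0050 (OG0013569) was 24.5 to 33.1 CPM.

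Roisl.0046s0885 (OG0005029, coding length 3600) showed how unevenly the spread was shared among groups. Its values in submerged *R. islandica* were 36.2, 36.4 and 36.6 CPM at 24 h and 39.5, 35.4 and 39.2 CPM at 48 h, against 35.3, 36.1 and 37.2 CPM and 35.0, 38.4 and 36.1 CPM in controls. Submerged *R. stylosa* had 35.1, 36.4 and 35.5 CPM at 24 h and 38.3, 36.8 and 36.4 CPM at 48 h, against 41.5, 28.4 and 37.0 CPM and 33.5, 33.1 and 36.5 CPM in controls. The *R. stylosa* controls at 24 h held both its highest and its lowest value, whereas the 3 submerged *R. islandica* libraries at 24 h were nearly equal.

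The remaining 4 of the 10 were Roisl.0053s0148, Roisl.0007s0110, Roisl.0004s0272 and Roisl.0008s0031. They had mean levels of 56.3, 56.5, 71.8 and 44.3 CPM over the 24 libraries, and the highest library was 1.33 to 1.35 times the lowest. The coding length of Roisl.0004s0272 was 207 bases, the shortest of the 100.

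**Figure D1:**
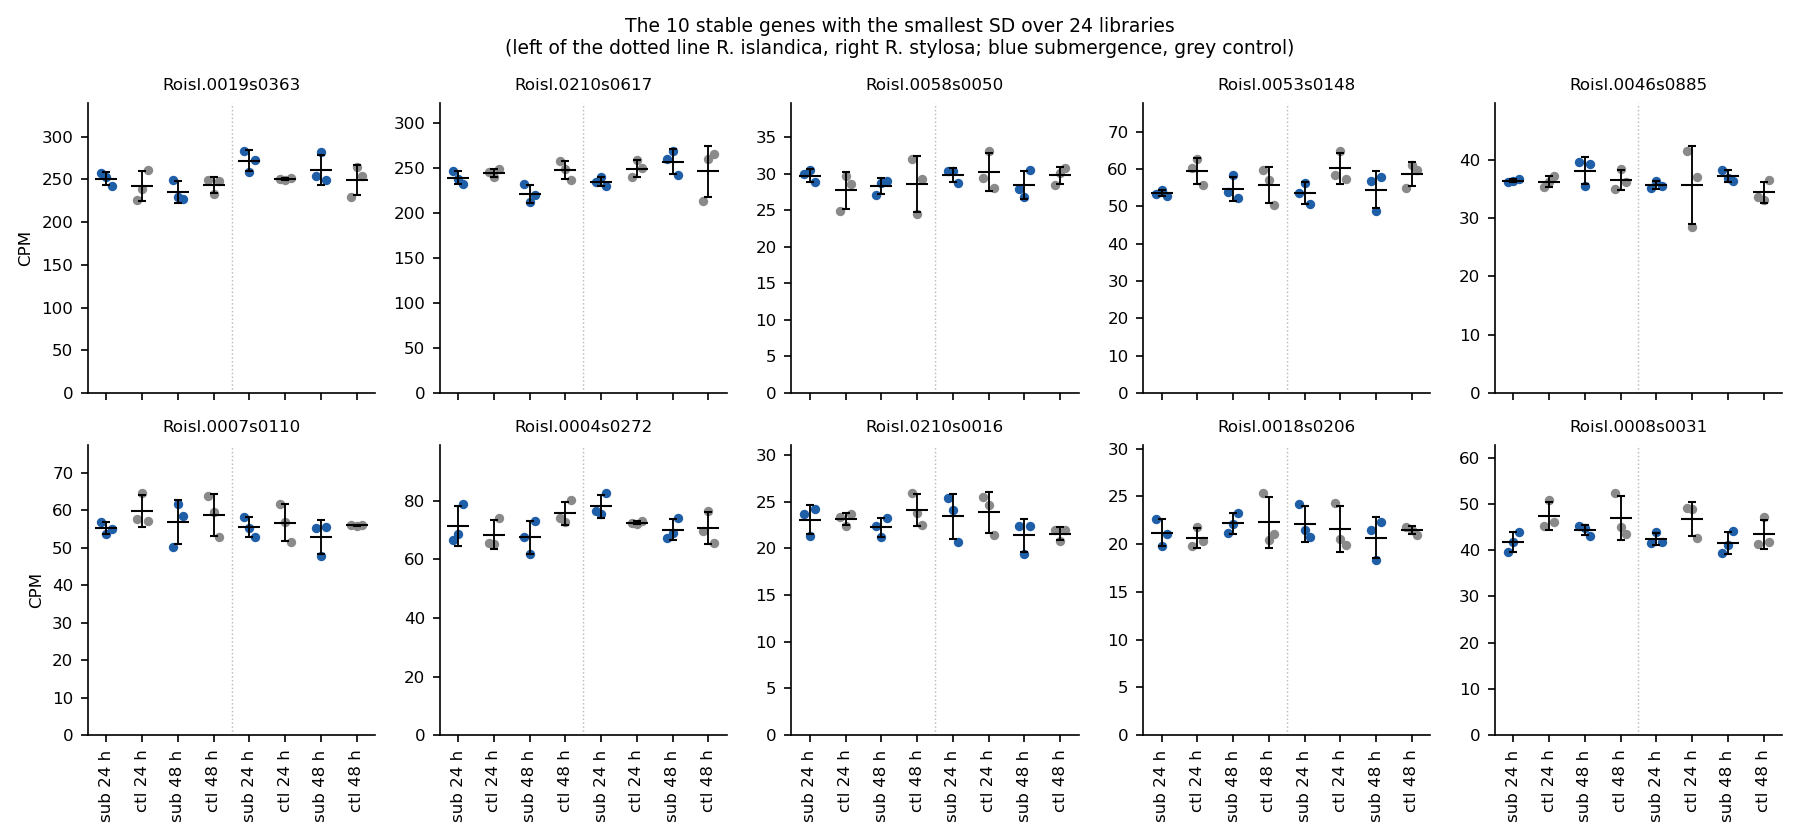
CPM per library of the 10 stable genes with the smallest SD over 24 libraries. Points are libraries (blue submergence, grey control), the bar and whiskers are the mean and SD of 3 libraries, the first 4 groups of each panel are *R. islandica* and the last 4 *R. stylosa*, and each axis starts at 0. Roisl.0019s0363 keeps between 226 and 283 CPM, while the 3 *R. stylosa* controls of Roisl.0046s0885 at 24 h lie between 28.4 and 41.5 CPM.

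The 3 genes at the other end of the 100 differed between species, within the limit of 0.5. Roisl.0210s1689 (OG0010150) had the largest SD, 0.30. It had 94.2, 82.3 and 90.9 CPM at 24 h and 83.8, 90.1 and 86.5 CPM at 48 h in submerged *R. islandica*, against 76.5, 88.6 and 80.7 CPM and 98.8, 78.9 and 79.6 CPM in controls. It had 56.1, 59.3 and 53.0 CPM at 24 h and 56.4, 52.6 and 61.6 CPM at 48 h in submerged *R. stylosa*, against 55.4, 74.0 and 55.5 CPM and 58.6, 67.3 and 60.3 CPM in controls. The 12 libraries of *R. islandica* were all above the 12 of *R. stylosa*.

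Roisl.0184s0002 and Roisl.0028s0828 followed, with SDs of 0.28 each and opposite directions between species. The mean CPM of Roisl.0184s0002 was 68.8 ± 9.25 and 77.8 ± 0.780 in submerged *R. islandica* at 24 and 48 h and 110.2 ± 6.55 and 105 ± 5.67 in submerged *R. stylosa* (SD, n = 3 each). For Roisl.0028s0828 the same means were 291 ± 1.72 and 287 ± 7.15 CPM in *R. islandica* and 190.4 ± 4.61 and 199 ± 25.2 CPM in *R. stylosa* (SD, n = 3 each). Of the 100 genes, 42 were higher and 46 lower in *R. islandica* than in *R. stylosa* controls at both time points. Among submerged plants, whose species ratio was bounded by the limits without being one of them, 91 of 100 genes at 24 h and 93 at 48 h were within 0.5 between *R. islandica* and *R. stylosa*, against 55.9% and 56.4% of the other genes of the window.

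Replicate spread was not itself a limit. The choice could still lower it, because ratios between means of 3 libraries are less often small where replicates differ widely. How far it did so was not tested. The pooled SD of log2 CPM (prior count of 2) within the 8 groups, which shows how far replicates of the same group differed, was 0.106 at the median of the 100 genes and 0.132 at the median of the other genes of the window. It was under 0.1 in 38 genes and above 0.15 in 9. The SD over all 24 libraries, which the choice lowered directly, was 0.156 at the median of the 100 genes and 0.420 in the other genes. The genes with the smallest pooled SD were Roisl.0021s0626 (0.0683), Roisl.0074s0692 (0.0689) and Roisl.0046s0398 (0.0723). Only 2 of the 10 genes with the smallest SD over 24 libraries were among the 10 with the smallest pooled SD.

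For most of the 100 genes, replicates of *R. stylosa* varied more than those of *R. islandica*, though not in every group. The pooled SD over 4 groups was 0.114 in *R. stylosa* and 0.0934 in *R. islandica* at the median of the 100 genes, and it was wider in *R. stylosa* for 74 of 100. The same held for 70.3% of the other genes of the window, with medians of 0.144 in *R. stylosa* and 0.108 in *R. islandica*. The submerged *R. stylosa* group at 48 h held the widest spread for 24 of the 100 genes and the *R. stylosa* control group at 24 h for 22. *R. islandica* controls at 48 h held it for 19, with a median SD of 0.0963. That was above the medians of submerged *R. stylosa* at 24 h, 0.0843, and of *R. stylosa* controls at 48 h, 0.0879. The groups with the smallest median SD were submerged *R. islandica* at 48 h, with 0.0685, and *R. islandica* controls at 24 h, with 0.0695.

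One library accounted for the widest single group. In Roisl.0021s0549 the 3 submerged *R. stylosa* libraries at 48 h had 41.0, 20.2 and 40.3 CPM, an SD of 0.58 on the log2 scale, and the low value was replicate 2. The other groups of this gene were narrower, with 42.7, 35.4 and 37.2 CPM in submerged *R. stylosa* at 24 h, against 39.0, 28.4 and 33.9 CPM in controls, and 30.8, 33.6 and 29.2 CPM in *R. stylosa* controls at 48 h. In *R. islandica* it had 28.8, 29.7 and 31.0 CPM at 24 h and 26.5, 32.2 and 32.0 CPM at 48 h under submergence, against 32.2, 29.1 and 32.7 CPM and 30.3, 32.1 and 30.8 CPM in controls. It was the 1 gene of the 100 whose highest library was over 2 times its lowest, at 2.11 times, whereas 50 genes stayed under 1.5 times. In the same replicate 2 of submerged *R. stylosa*, the median deviation of the 100 genes from their own means was -0.077, the lowest of the 24 libraries. The highest was 0.10 in *R. stylosa* control replicate 1 at 24 h.

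**Figure D2:**
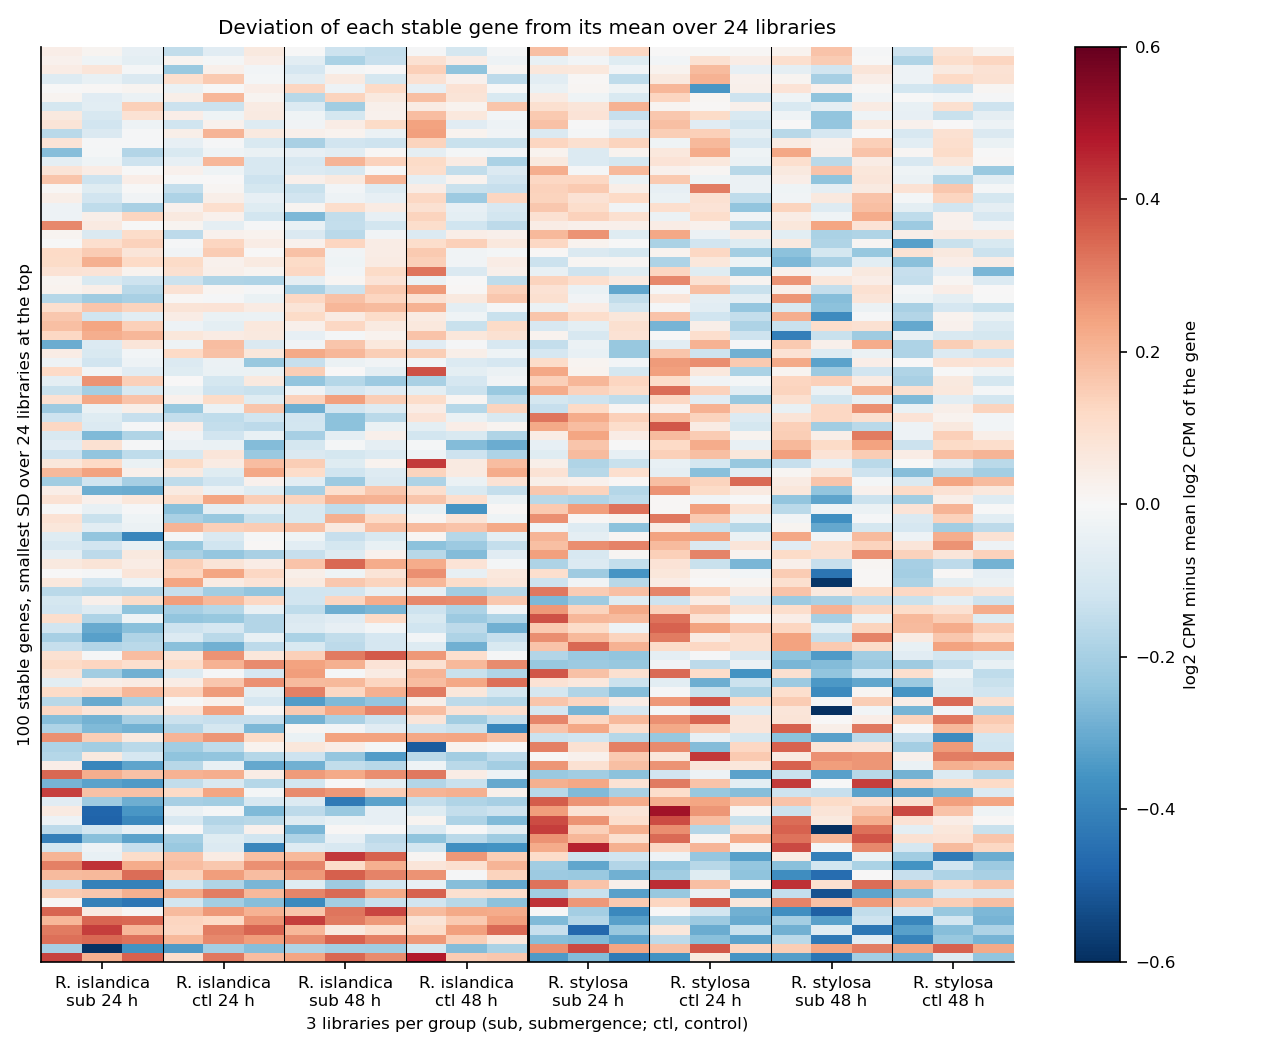
Deviation of log2 CPM from the gene's mean over 24 libraries for the 100 stable genes (rows, smallest SD at the top) in each library (columns, 3 per group), with colours ending at -0.6 and 0.6 and larger deviations drawn at the ends. The lower rows separate *R. islandica* from *R. stylosa*, as in Roisl.0210s1689, the last row, whose SD was 0.30.

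**Figure D3:**
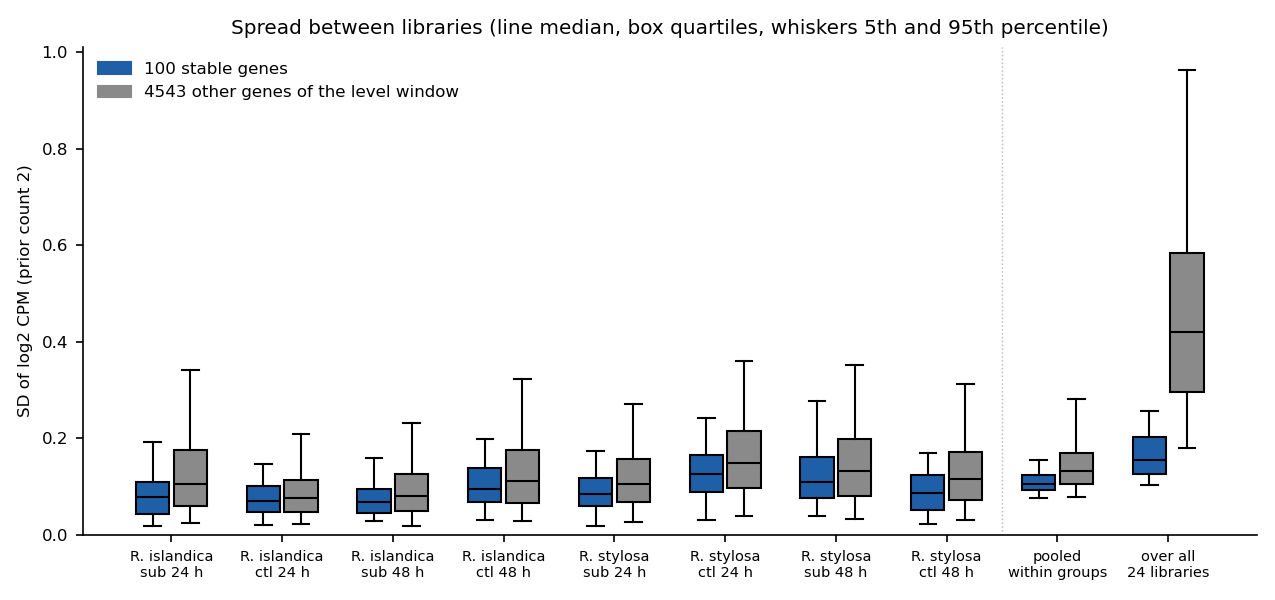
SD of log2 CPM among the 3 libraries of each group, pooled within groups, and over all 24 libraries, for the 100 stable genes (blue) and the 4543 other genes of the window (grey). The within-group boxes overlap widely, with pooled medians of 0.106 and 0.132. The boxes over 24 libraries, which reflect the choice of the genes more directly, are apart with medians of 0.156 and 0.420.

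With library totals in edgeR, the SE of the log2 submergence ratio at 24 h had a median of 0.083 over the 100 genes for *R. islandica*, with a highest value of 0.12, and a median of 0.11 for *R. stylosa*, with a highest value of 0.21. The 95% intervals of all 4 submergence ratios stayed within 0.3 for only 9 of the 100 genes. They stayed within 0.4 for 64 genes and within 0.5 for 97. When each of the 24 libraries was left out in turn, 86 to 108 genes met the limits, 82 to 100 of the 100 were kept, and 28 genes were kept every time. Of the 10 most even genes, Roisl.0019s0363, Roisl.0210s0617, Roisl.0058s0050, Roisl.0046s0885, Roisl.0007s0110 and Roisl.0210s0016 were kept without each library, and the least often kept was Roisl.0008s0031, in 20 of 24.

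Whether the genes were level depended on what their counts were divided by. Library totals include a few very abundant transcripts: the 190 genes with a group mean of 1000 CPM or more took 30.7 ± 0.0738% of the counts in submerged *R. islandica* at 24 h, against 40.5 ± 0.312% in controls, and 27.9 ± 1.28% at 48 h, against 39.5 ± 1.19% in controls (SD, n = 3 each). In *R. stylosa* they took 30.7 ± 1.60% in submerged plants at 24 h, against 36.9 ± 1.5% in controls, and 30.4 ± 1.74% at 48 h, against 38.8 ± 2.57% in controls. The groups did not overlap in any of the 4 comparisons. The part of these abundant genes in the levels of the others was not tested.

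With library totals, the median gene of the window was higher in submerged plants than in controls, by 0.13 at 24 h and 0.24 at 48 h in *R. islandica* and by 0.16 and 0.24 in *R. stylosa* on the log2 scale. The medians of the 100 stable genes, whose ratios the limit of 0.2 bounded, were -0.01 and -0.00 in *R. islandica* and -0.02 and 0.02 in *R. stylosa*. These medians lay below the median gene of the window in all 4 comparisons. Single genes of the 100 lay above it at 24 h, reaching 0.196 in *R. islandica* and 0.191 in *R. stylosa*. Normalization by the trimmed mean of M-values (TMM), which assumes that most genes keep their level and sets the scale by them, placed the same 100 genes at medians of -0.16 and -0.18 in *R. islandica* and -0.24 and -0.27 in *R. stylosa*. DESeq2's size factors gave -0.13 and -0.19 in *R. islandica*, and -0.24 and -0.26 in *R. stylosa*.

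In edgeR, a test for counts, with TMM and a Benjamini-Hochberg adjusted p under 0.05 over all genes tested as the call, a description here because the genes were selected on the same contrasts, 34 of the 100 were called lower in submerged *R. islandica* at 24 h and 46 at 48 h, where 34.8% and 35.5% of all genes tested were called lower. In submerged *R. stylosa* 52 were called lower at 24 h and 61 at 48 h, where 27.7% and 32.7% of all genes tested were. None was called higher. In either direction, 69.9% and 72.9% of all genes tested were called in *R. islandica* and 56.6% and 66.7% in *R. stylosa*. With library totals in edgeR, the scaling by which the genes were chosen, 5 were called lower and 1 higher in *R. islandica* at 24 h and 2 lower at 48 h. Of all genes tested, 69.9% and 73.4% were called there. In *R. stylosa* 0 were called at either time point, where 56% and 67.2% of all genes tested were. At an unadjusted p under 0.05 it was 0 and 1 in *R. stylosa*, where it was 60.9% and 70% of all genes tested. Roisl.0053s0148, Roisl.0007s0110 and Roisl.0008s0031 of the 10 most even genes were among the 10 genes called lower in all 4 comparisons. Roisl.0046s0885 was among the 6 called in none, with log2 ratios of -0.12 and -0.13 in *R. islandica* and -0.21 and -0.18 in *R. stylosa*. With TMM, the 95% intervals of all 4 submergence ratios stayed within 0.3 for 0 of the 100 genes. They stayed within 0.4 for 5 genes and within 0.5 for 43.

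With TMM, 139 genes met all limits, of which 3 were among the 100: Roisl.0012s0147, Roisl.0019s0852 and Roisl.0210s1033. With DESeq2's size factors 145 genes met them, of which 4 were among the 100, the same 3 and Roisl.0028s0944. Values scaled by coding length as well (TPM) kept 35 of the 100 among 92 genes, and none of these 4. These scalings were set beside the library totals after earlier results of the data were known. With library totals and each library left out, Roisl.0012s0147, Roisl.0019s0852, Roisl.0210s1033 and Roisl.0028s0944 were kept in 18, 19, 17 and 16 of 24. The fewest for any of the 100 was 16.

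Roisl.0019s0852 (OG0011957, coding length 1065) had the smallest spread of the 3 genes that met the limits with library totals, TMM and size factors. It had 228, 237 and 222 CPM at 24 h and 205, 219 and 209 CPM at 48 h in submerged *R. islandica*, against 197, 193 and 209.9 CPM and 210.0, 184 and 218 CPM in controls. Submerged *R. stylosa* had 188, 193 and 215 CPM at 24 h and 184, 217 and 214 CPM at 48 h, against 166, 206 and 177 CPM and 163, 205 and 189.7 CPM in controls. Submerged libraries were above all controls only in *R. islandica* at 24 h. Its submergence ratios with library totals were 0.20 and 0.05 in *R. islandica* and 0.12 and 0.14 in *R. stylosa*, against TMM values of 0.06 and -0.13, and -0.10 and -0.14. Its SD over 24 libraries was 0.14 with library totals and 0.15 with TMM.

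Roisl.0012s0147 (OG0017261) and Roisl.0210s1033 (OG0010016) had larger spreads over 24 libraries, 0.23 each. The TMM ratios of Roisl.0210s1033 were -0.00 and -0.01 in *R. islandica* and -0.04 and -0.13 in *R. stylosa*. Its CPM were 40.6, 42.9 and 39.7 at 24 h and 41.5, 40.9 and 39.7 at 48 h in submerged *R. islandica*, against 37.5, 41.3 and 33.3 CPM and 40.5, 33.9 and 34.1 CPM in controls. Submerged *R. stylosa* libraries had 51.0, 60.2 and 50.7 CPM at 24 h and 57.6, 43.4 and 53.4 CPM at 48 h, against 47.7, 50.3 and 44.4 CPM and 40.8, 49.8 and 47.7 CPM in controls. The *R. stylosa* libraries were higher than those of *R. islandica* in every group mean.

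**Figure D4:**
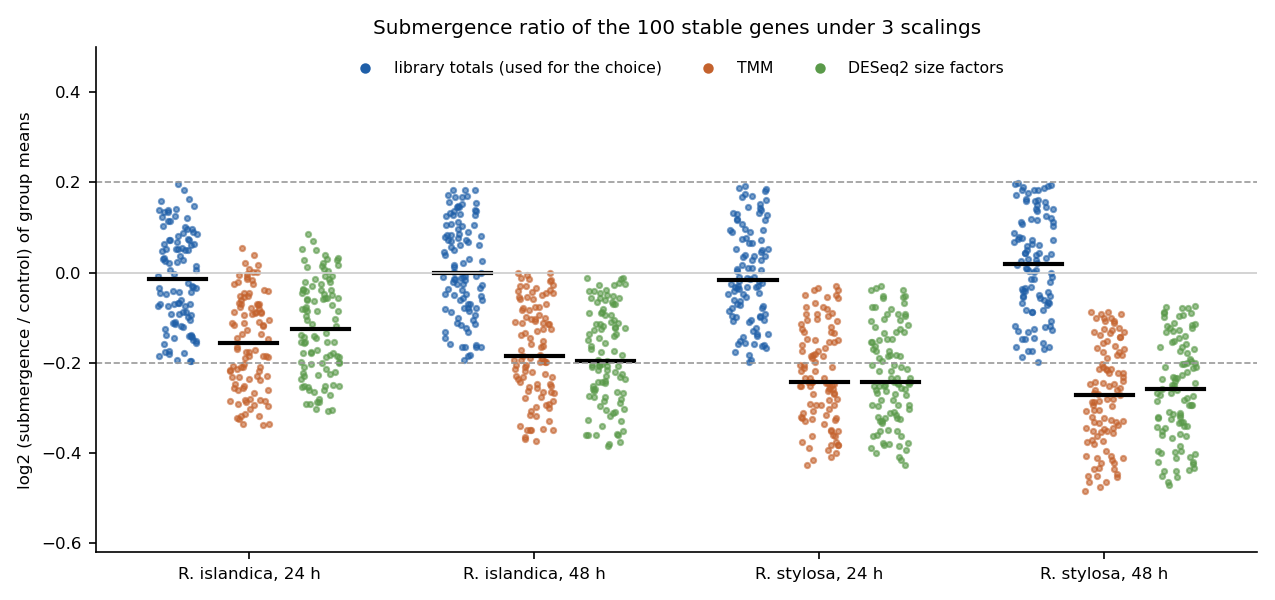
Log2 ratio of submergence to control for each of the 100 stable genes (points) in the 4 comparisons, with library totals (blue, used for the choice), TMM (orange) and DESeq2's size factors (green). Black bars are medians and dashed lines mark the limits of -0.2 and 0.2. All blue points lie between the limits, and the TMM medians are at -0.16, -0.18, -0.24 and -0.27.

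A ratio between 2 genes of the same library does not depend on the scaling. The SD of the log2 ratio over 24 libraries was 0.21 at the median of the 4950 pairs among the 100 genes, and it ranged between 0.0687 and 0.55. As a mean over its pairs with the other genes, Roisl.0018s0206 had the smallest SD, 0.18, followed by Roisl.0007s0110 and Roisl.0210s0016. The most constant pair, singled out after its values were seen, was Roisl.0021s0401 over Roisl.0050s0039, with a mean ratio of 1.24 ± 0.0588 (SD over 24 libraries) and a range of 1.13 to 1.34. Both genes are single-copy in their orthogroups, with coding lengths of 822 and 804 bases.

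The change between harvests was not among the limits. In controls the choice still limited it in part, because the control means entered the window of levels, the submergence ratios and the species ratio at each time point. The control changes of 99 of the 100 genes were within 0.2 for *R. islandica* and of 99 for *R. stylosa*, in CPM with library totals. Of the other genes of the window, 92.9% and 94.7% were. In edgeR with TMM, 0 of 100 genes differed between 48 and 24 h in controls of either species, where 0% of all genes tested were called in the one species and 0% in the other. At an unadjusted p under 0.05 it was 0 of 100 in both species, against 4.59% of all genes tested in *R. islandica* and 1.36% in *R. stylosa*. DESeq2 called 0 of 100 in both, where 0.0392% and 0.00326% of all 30646 genes were called. The 95% interval of the change stayed within 0.3 for 91 genes in *R. islandica* and for 80 in *R. stylosa*, and within 0.5 for all 100 in both.

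Under water the change between harvests was bounded in part by the choice, because both submerged means had to be near their own controls. With library totals it was within 0.2 for 89 of the 100 genes in submerged *R. islandica* and for 91 in submerged *R. stylosa*, against 56.8% and 63.4% of the other genes of the window. In edgeR with TMM, 6 of 100 were called between 48 and 24 h in submerged *R. islandica*, 5 lower and 1 higher at 48 h, where 14.9% of all genes tested were called. With library totals 4 were called, 2 lower and 2 higher, where 18.9% of all genes tested were called. The median change of the 100 was then 0.03, against -0.07 with TMM. In submerged *R. stylosa* 0 of 100 were called, where 1.01% of all genes tested were called. At an unadjusted p under 0.05 it was 11 of the 100 and 19.7% of all genes tested. DESeq2, which was run without edgeR's filter on low counts, called 2 of the 100 and 4.05% of all 30646 genes. The difference between the species in this change was called for 0 of 100 genes in edgeR's model of all 24 libraries. This held both in submerged plants, where 1.64% of the 22226 genes tested were called, and in controls, where 0% were. Unadjusted p under 0.05 was reached by 9 and 1 of the 100, against 15.7% and 2.03% of these 22226 genes. This difference was not run in DESeq2.

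The gene with the lowest adjusted p was Roisl.0091s0089 (OG0016804, coding length 327). In submerged *R. islandica* it had 63.4, 65.0 and 66.5 CPM at 48 h, against 71.4, 76.2 and 75.2 CPM at 24 h, and the log2 change was -0.29 ± 0.061 (SE, adjusted p = 0.00971, edgeR). In controls of the same species it had 73.7, 68.7 and 69.8 CPM at 48 h, against 68.6, 67.8 and 68.2 CPM at 24 h. In submerged *R. stylosa* it had 49.4, 59.8 and 56.6 CPM at 48 h, against 66.5, 61.3 and 69.5 CPM at 24 h, and the change of -0.27 ± 0.11 did not pass (adjusted p = 0.209, edgeR). The harvests did not overlap among submerged plants of either species.

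Roisl.0115s0074 (OG0002860), an abundant gene at 395 CPM over the 24 libraries, had the largest change of the 6. In submerged *R. islandica* it had 333, 349 and 337 CPM at 48 h, against 377, 474 and 434 CPM at 24 h, a log2 change of -0.43 ± 0.10 (SE, adjusted p = 0.0162, edgeR). In submerged *R. stylosa* it had 429, 434 and 406 CPM at 48 h, against 433, 451 and 429 CPM at 24 h. Without submerged *R. islandica* replicate 2 at 24 h, the highest of its libraries, its change was -0.34 and was not called, and it also lost its call without replicate 3 at 24 h (-0.42) or replicate 3 at 48 h (-0.41).

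Roisl.0003s0102 (OG0009594) was the 1 gene called higher. It had 44.5, 46.2 and 44.7 CPM at 48 h in submerged *R. islandica*, against 36.2, 35.3 and 35.7 CPM at 24 h, a log2 change of 0.24 ± 0.061 (SE, adjusted p = 0.0212, edgeR). Its control values were 43.5, 42.5 and 45.7 CPM at 48 h, against 41.1, 40.7 and 39.7 CPM at 24 h. Its submerged *R. stylosa* libraries overlapped between harvests, with 49.0, 34.2 and 43.0 CPM at 48 h, against 43.6, 40.3 and 36.9 CPM at 24 h.

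Roisl.0021s0401, Roisl.0050s0039 and Roisl.0213s0512 were the other 3 genes called lower, with log2 changes of -0.26 ± 0.071, -0.30 ± 0.081 and -0.31 ± 0.087 (SE), with adjusted p of 0.0289, 0.0298 and 0.0337 in edgeR. With library totals in edgeR their changes were -0.17, -0.20 and -0.22 and were not called. Roisl.0021s0401 and Roisl.0050s0039 also form the most constant pair above.

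The 6 calls were sensitive to single libraries. Without submerged *R. islandica* replicate 2 at 24 h only 1 of the 100 genes was called, and without replicate 3 at 24 h, replicate 2 at 48 h or replicate 3 at 48 h of the same treatment 2 were called. DESeq2 called 17, of which 16 were lower and 1 higher at 48 h, and 13% of all 30646 genes. That base includes genes below edgeR's filter on low counts, so this share cannot be set against edgeR's share of 20609 genes tested. Over all genes DESeq2 called 3970 and edgeR 3063. None of the 100 passed a log2 threshold of 1.

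**Figure D5:**
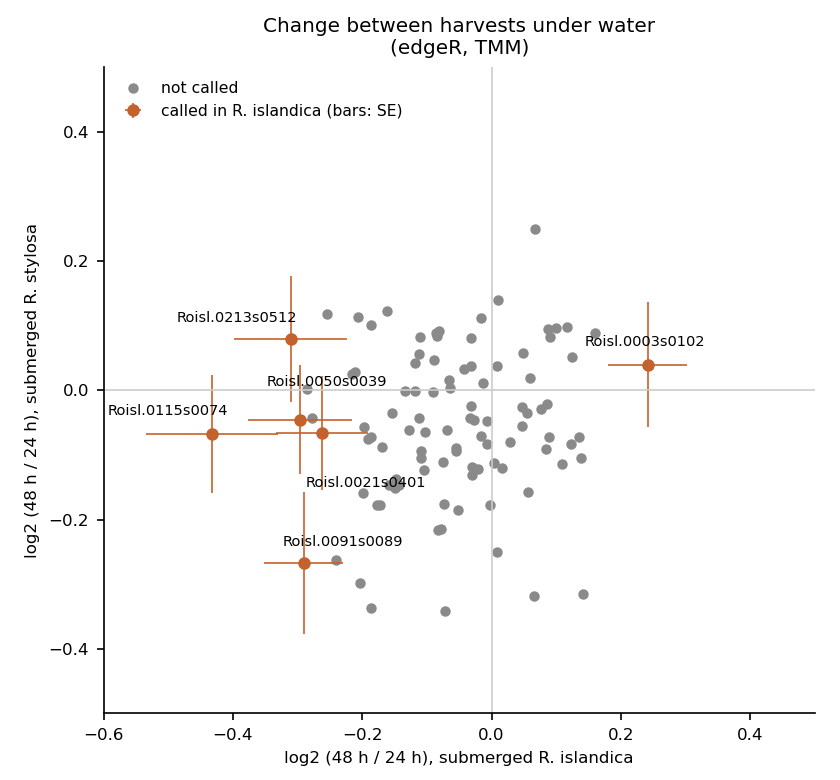
Log2 change between 48 and 24 h (edgeR, TMM) of the 100 stable genes in submerged *R. islandica* (horizontal) and submerged *R. stylosa* (vertical). Orange points with SE bars are the 6 genes called in *R. islandica*, of which Roisl.0115s0074 at -0.43 is farthest from 0, and grey points are the other genes.

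Paralogs are genes of the same orthogroup. Their calls used TMM, with which many of the stable genes were themselves called lower. The 11 stable genes in larger orthogroups had 13 paralogs, of which 9 passed edgeR's filter on low counts in both species. At a log2 threshold of 1, submergence changed 2 of these 9 in *R. islandica* at 24 h and 2 at 48 h, where 22.2% and 26% of all genes tested were called, and 0 in *R. stylosa* at either time point, where 12.7% and 19.7% were. No paralog was called in all 4 comparisons. Against no change, edgeR called 9 and 7 of the 9 in *R. islandica* and 8 and 7 in *R. stylosa*. Of all genes tested, 69.9%, 72.9%, 56.6% and 66.7% were called. By the same test with TMM, 34, 46, 52 and 61 of the 100 stable genes were called. DESeq2 called 9 and 8 in *R. islandica* and 8 and 7 in *R. stylosa*.

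Roisl.0035s0166, the paralog of Roisl.0018s0240 in OG0002105, was called higher at both time points. In submerged *R. islandica* it had 120.1, 132 and 127 CPM at 24 h and 125, 132 and 118 CPM at 48 h, against 49.5, 55.3 and 42.8 CPM and 54.0, 43.9 and 43.3 CPM in controls. Its log2 changes were 1.23 ± 0.11 at 24 h and 1.23 ± 0.11 at 48 h (SE, adjusted p = 0.0292 and 0.0286, edgeR at a threshold of 1). Submerged *R. stylosa* libraries had 90.5, 91.3 and 77.4 CPM at 24 h and 80.5, 72.8 and 78.6 CPM at 48 h, against 47.8, 42.7 and 35.9 CPM and 44.7, 39.9 and 39.3 CPM in controls, and its changes of 0.83 and 0.61 did not pass the threshold. Submerged and control libraries did not overlap in either species. The call at 24 h was lost without *R. islandica* control replicate 1 or 3 or submerged replicate 2 or 3 of that harvest (log2 changes of 1.15 to 1.23), and the call at 48 h without control replicate 2 or 3 or submerged replicate 1 or 2 (1.17 to 1.2). DESeq2 at the same threshold called it at neither time point (adjusted p = 0.258 and 0.410), and the call at 48 h was also lost with size factors or with only the 6 libraries compared (1.19 and 1.18).

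Its stable relative Roisl.0018s0240 had 29.6, 27.2 and 26.5 CPM at 24 h and 30.5, 32.6 and 31.3 CPM at 48 h in submerged *R. islandica*, against 30.8, 32.4 and 28.8 CPM and 32.2, 29.3 and 28.3 CPM in controls. These CPM use library totals. With TMM, the log2 submergence ratios of Roisl.0018s0240 were -0.29 and -0.11 in *R. islandica* at 24 and 48 h and -0.13 and -0.13 in *R. stylosa*. Its counts were not whole in 3 of 24 libraries. Per kilobase of coding length, Roisl.0018s0240 stood at 20.6 CPM and Roisl.0035s0166 at 49.7 CPM over the 24 libraries.

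Both other called paralogs were lower under submergence in both species at both time points, and were called only in *R. islandica*. Roisl.0213s0180 had log2 changes that did not pass of -1.02 in *R. islandica* at 48 h and -0.87 and -1.11 in *R. stylosa* at 24 and 48 h. For Roisl.0080s0606 these were -0.66 in *R. islandica* at 24 h and -0.39 and -0.58 in *R. stylosa*. Roisl.0213s0180, the paralog of Roisl.0028s0828 in OG0001370, had 15.9, 12.1 and 13.0 CPM in submerged plants at 24 h, against 35.7, 39.4 and 36.5 CPM in controls, a log2 change of -1.58 ± 0.14 (SE, adjusted p = 0.00121, edgeR at a threshold of 1). The counts of Roisl.0028s0828 were not whole in 24 of 24 libraries, so the separate levels of this pair are uncertain. Roisl.0080s0606, the paralog of Roisl.0022s0269 in OG0000668, had 5.82, 5.23 and 5.95 CPM in submerged plants at 48 h, against 15.2, 11.7 and 11.5 CPM in controls, a log2 change of -1.35 ± 0.11 (SE, adjusted p = 0.00488, edgeR at a threshold of 1). Both calls held without each of the 12 libraries, but with library totals Roisl.0080s0606 was not called, at -1.17.

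Isoforms were annotated for 4 of the 100 genes. In Roisl.0001s0326, Roisl.0046s1237 and Roisl.0079s0321 the 2 isoforms had equal coding lengths and equal counts in all 24 libraries, so the reads did not tell them apart. In Roisl.0210s1452 (OG0010098), whose isoforms have coding lengths of 1845 and 1629 bases, the shorter isoform Roisl.0210s1452.2 took less of the gene's counts in submerged plants. Its share was 16.5, 14.6 and 18.3% in submerged *R. islandica* at 24 h, against 18.4, 26.2 and 27.7% in controls, and 14.6, 11.2 and 17.4% at 48 h, against 21.1, 18.0 and 23.4% in controls. In *R. stylosa* it was 29.6, 21.9 and 20.1% in submerged plants at 24 h, against 20.2, 28.0 and 33.8% in controls, and 23.3, 24.0 and 17.7% at 48 h, against 36.5, 26.0 and 32.0% in controls. The shares did not overlap between treatments except in *R. stylosa* at 24 h.

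In edgeR on transcripts, Roisl.0210s1452.2 was lower, with log2 changes of -0.67 ± 0.20 and -0.74 ± 0.20, in submerged *R. islandica* at 24 and 48 h (SE, adjusted p = 0.0104 and 0.00640), where 67.8% and 70.9% of all transcripts tested were called. In submerged *R. stylosa* its changes were -0.42 ± 0.19 and -0.66 ± 0.19 (SE, adjusted p = 0.0836 and 0.0104, edgeR), where 55.3% and 65.5% of all transcripts were called. The call of Roisl.0210s1452.2 in *R. stylosa* at 48 h was lost without control replicate 1 of that harvest (log2 change of -0.51, adjusted p = 0.0504, edgeR). The longer isoform Roisl.0210s1452.1 was not called in any of the 4, with changes between -0.18 and 0.08. The gene as a whole had 47.4 ± 1.24 and 47.8 ± 2.59 CPM in submerged *R. islandica* at 24 and 48 h, against 46.9 ± 1.34 and 48.6 ± 7.24 CPM in controls (SD, n = 3 each).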

How the data were processed

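RNA-seq of young leaves gave 24 libraries, 3 per group. Polyadenylated RNA was sequenced from both fragment ends by the authors, who checked the reads with FastQC 0.12.0 and assigned them with kallisto to the annotated transcripts of *R. islandica*, for both species. The deposited values are expected counts (estimated counts) per transcript, without normalization, beside the orthogroup and a length of the transcript model. This length was read as coding length, because all were multiples of 3. Column names were read as treatment, harvest (1 for 24 h, 2 for 48 h) and replicate. Of the deposited expected counts, 11.8% were not whole.

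Isoforms were summed over 32703 transcripts. CPM used library totals. SDs are of log2 CPM with a prior count of 2. Tests used edgeR 4.0.16 in R 4.3.3 on rounded sums (filterByExpr, TMM, glmQLFTest against no change, glmTreat at a log2 threshold of 1), with 4 groups and 12 libraries per species, Benjamini-Hochberg adjustment over all genes tested (20609 and 19886) and a threshold of 0.05. DESeq2 1.42.0 was an alternative, and the fits were tested on simulated data. The other alternatives were DESeq2's size factors, no filter, a replicate block, only the 6 libraries compared, each library left out and other scalings. Library totals in edgeR, totals of genes under 1000 CPM and the interaction of species and harvest were added after seeing the data.

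The members and lists were chosen with earlier results of these data known. Genes were named by fixed ranks: the smallest and largest SD over 24 libraries, the extremes of level, the genes beside each limit, those called between harvests with the lowest adjusted p, called paralogs, and isoforms whose share changed. Genes added after their values were seen are Roisl.0021s0549, the genes with the smallest pooled SD, the most constant pair and those that met the limits under several scalings.

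Replicate pairs differed by a chi-square per degree of freedom of 11.4 to 153, so none was a repeated library. The p-values measure the spread between these libraries. Numbers paired the libraries (all 3 correlations of deviations above 0.1) only for submergence and control of *R. islandica* at 24 h (0.38, 0.11 and 0.17) and between harvests among *R. stylosa* controls (0.27, 0.12 and 0.46).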

Additional observations from a re-analysis of the deposited data

How the results depend on the processing

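The number of genes that met all limits was 139 with TMM, 145 with size factors, 92 with TPM, 116 with totals of genes under 1000 CPM (added after seeing the data) and 92 with medians of 3 libraries, but only 3, 4, 35, 6 and 70 of the 100 were among them. It was 9 with a submergence limit of 0.1 and 299 with 0.3, and 86 to 108 without each library. The median pooled SD was 0.0947 with TMM and 0.101 to 0.109 without each library, and the SD over 24 libraries was 0.190 with TMM and 0.149 to 0.159. For submerged *R. islandica* between harvests, 6 genes were called with the replicate block, 9 with size factors, 5 with the 6 libraries compared, 4 with library totals, 17 with DESeq2, 0 at a log2 threshold of 1 and 1 to 8 without each library; for submerged *R. stylosa* DESeq2 called 2, and 0 were called without each library, as in controls of both species. Of the 9 paralogs tested, 9 and 7 were called in *R. islandica* at 24 and 48 h and 8 and 7 in *R. stylosa* against no change, 9, 8, 8 and 7 by DESeq2, and at a log2 threshold of 1 in *R. islandica* at 48 h 1 with size factors or with the 6 libraries compared. Without each library 1 to 2 were called in *R. islandica* at 24 h and 1 to 2 at 48 h, and 0 and 0 to 1 in *R. stylosa* (1 without submerged replicate 3 at 48 h). Of the 8 isoforms, 1 to 3 and 3 were called in *R. islandica* and 0 to 3 and 2 to 5 in *R. stylosa* without each library. These counts hold both copies of the equal isoforms of Roisl.0001s0326, Roisl.0046s1237 and Roisl.0079s0321. With all libraries, 67.8% and 70.9% of all transcripts tested were called in *R. islandica* and 55.3% and 65.5% in *R. stylosa*. The replicate block moved no count among the 100 genes, paralogs or isoforms by over 1.5 times; over all genes it called 370 between harvests in submerged *R. stylosa*, against 201 without it. The 6 named genes kept their direction in every alternative, and 5 of them, all but Roisl.0091s0089, lost their call without 3 to 6 of the 12 libraries.

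Every gene had at least 451 counts per library, with 3 libraries per group. The submergence and control species ratios chose the genes, so tests on these contrasts are descriptions.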
